A study of Homo sapiens with 12 samples.

Results

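The genes of the human proteasome were described here by the BG4 signal at their transcription start sites (TSSs) in HEK293 cells, a human line derived long ago from embryonic kidney. BG4 is an antibody fragment that binds G-quadruplexes, stacked structures that guanine-rich DNA can form, and it was used here for chromatin immunoprecipitation and sequencing (G4-ChIP-seq). Members were the protein-coding genes whose symbol is PSMA, PSMB, PSMC, PSMD, PSME, PSMF or PSMG followed by a number, 48 of the 20056 protein-coding genes in the RefSeq gene table. Each took the TSS window of 400 bp on its own strand that lay nearest its RefSeq 5′ end, within 1 kb, which gave 44 members a window of their own. No window met this rule for PSMC2, PSME3, PSMB9 and PSMG4. By the same rule 16892 protein-coding genes had a window. The study has a single condition, untreated HEK293 cells, in 3 biological replicates called BioRep1, BioRep2 and BioRep3. Each comprised 3 technical libraries from the precipitation and 1 input. The inputs, which skipped the antibody, were not analysed here. The data are read counts of the 9 ChIP libraries in 58381 TSS windows, and 1 list of BG4 peaks per biological replicate.

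The proteasome is the protease that degrades ubiquitin-tagged proteins. Its core particle is a barrel of stacked rings, the outer ones of alpha subunits (PSMA genes) and the inner ones of beta subunits (PSMB genes), which carry the proteolytic sites. A regulatory particle caps the barrel: its base holds a ring of ATPases (PSMC genes) that unfold substrates, and its lid (several PSMD genes) holds the deubiquitinase PSMD14. In immune cells and after interferon-γ, the catalytic subunits PSMB8, PSMB9 and PSMB10 replace their constitutive counterparts to form the immunoproteasome, and PSME1 and PSME2 form an activator that caps it. Other genes of the family encode further activators (PSME3, PSME4), an inhibitor (PSMF1) and chaperones that assemble the core (PSMG1 to PSMG4) or the base (PSMD5, PSMD9, PSMD10). Transcription of the subunit genes is coordinated in human cells by NFE2L1, a factor that binds antioxidant response elements.

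The promoters of the members with the highest and the lowest BG4 read density are shown first, so that their guanine content can be read from the sequence. Each is the RefSeq promoter of GRCh38.p14, from 250 bases before to 50 bases after the start, written 5′ to 3′ on the strand of the gene. Capitals mark runs of 3 or more G or 3 or more C, the building blocks of a G-quadruplex on that strand or on the other. PSMD8 and PSMA5 had the highest windows, and PSMF1 and PSMD6 the lowest. Of the 400 bp window, the promoter shown covers 284 bp for PSMD8, 229 bp for PSMA5 and 249 bp for PSMF1. The PSMD6 promoter does not overlap the PSMD6 window, whose TSS lies 516 bp upstream of this start.
PSMD8 (chr19:38374321-38374620, plus strand): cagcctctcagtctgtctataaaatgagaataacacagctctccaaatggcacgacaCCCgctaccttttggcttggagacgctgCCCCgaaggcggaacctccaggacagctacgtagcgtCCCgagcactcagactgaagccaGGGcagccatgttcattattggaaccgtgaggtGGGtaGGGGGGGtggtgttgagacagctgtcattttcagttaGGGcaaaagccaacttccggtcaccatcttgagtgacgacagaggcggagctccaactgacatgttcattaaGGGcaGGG
PSMA5 (chr1:109426399-109426698, minus strand): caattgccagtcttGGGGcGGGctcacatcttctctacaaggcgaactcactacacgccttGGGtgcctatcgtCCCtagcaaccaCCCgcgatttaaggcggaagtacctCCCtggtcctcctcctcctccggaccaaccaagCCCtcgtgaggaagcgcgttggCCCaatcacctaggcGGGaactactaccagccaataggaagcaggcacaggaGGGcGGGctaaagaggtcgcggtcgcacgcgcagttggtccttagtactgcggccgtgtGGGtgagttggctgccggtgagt
PSMF1 (chr20:1113013-1113312, plus strand): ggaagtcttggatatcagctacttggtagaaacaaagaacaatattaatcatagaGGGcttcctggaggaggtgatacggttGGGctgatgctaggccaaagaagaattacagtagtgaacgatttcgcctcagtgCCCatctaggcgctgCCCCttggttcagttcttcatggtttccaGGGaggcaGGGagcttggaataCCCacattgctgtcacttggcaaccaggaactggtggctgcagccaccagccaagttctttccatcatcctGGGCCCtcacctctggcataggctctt
PSMD6 (chr3:64023445-64023744, minus strand): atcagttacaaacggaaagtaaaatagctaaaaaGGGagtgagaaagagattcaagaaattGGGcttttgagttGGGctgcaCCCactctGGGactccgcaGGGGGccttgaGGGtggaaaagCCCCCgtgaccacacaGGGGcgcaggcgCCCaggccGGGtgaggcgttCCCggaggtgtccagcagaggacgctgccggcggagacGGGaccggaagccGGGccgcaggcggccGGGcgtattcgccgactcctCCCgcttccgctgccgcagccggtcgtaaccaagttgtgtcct
The PSMD8 promoter has 6 G runs and 3 C runs at 54.3% GC, and that of PSMA5 has 7 G runs and 5 C runs at 60.7% GC. PSMF1 has 5 G runs and 4 C runs at 51% GC. The PSMD6 promoter, outside the window, has 11 G runs and 5 C runs at 62.7% GC. It was overlapped by a peak of 119 bp in BioRep1 and of 41 bp in BioRep2. The low read density of the PSMD6 window therefore does not describe this promoter. PSMF1 has another RefSeq start (chr20:1118602), whose promoter is not shown. BioRep2 and BioRep3 had a peak within 200 bp of that start, and no list had one at the PSMF1 start shown.

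A peak in all 3 lists was found in the window of 17 of the 44 members (38.6%, 95% Wilson interval 25.7 to 53.4%), against 4046 of all 16892 protein-coding genes with a window (24.0%). By single list, peaks covered 27 members in BioRep3 (61.4%, against 38.6% of all protein-coding genes), 27 in BioRep2 (61.4%, against 35.6%) and 18 in BioRep1 (40.9%, against 25.4%). Peaks in at least 2 lists covered 27 members (61.4%), against 34.2% of all protein-coding genes. No list had a peak in the windows of 16 members, and 58.6% of all protein-coding genes had none. These shares are descriptions, with no test of the list as a whole, and the interval covers counting error only. Exactly 2 lists had a peak at 10 members, against 10.3% of all protein-coding genes, and 1 list at PSMC6 alone, against 7.16%. Of the 10, PSMB4 lacked the BioRep3 peak and 9 lacked only the BioRep1 peak: PSMA1, PSMB1, PSMB2, PSMB6, PSMB7, PSMC5, PSMD1, PSMD3 and PSMD9. That pattern was found in 9.16% of all protein-coding genes. BioRep1 also had the shortest list, with 7931 peaks against 11665 in BioRep2 and 13049 in BioRep3, and without it 26 members (59.1%) had a peak in both lists, against 33.1% of all protein-coding genes. The count also depended on peak length. When only peaks at least as long as the median of their list were used, 7 members (15.9%) had one in all 3 lists, against 14.1% of all protein-coding genes.

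The classes differed in how their windows were covered, with 2 to 8 windows per class and no test between them. The lid had the highest count, with peaks in all 3 lists at 5 of 8 windows (62.5%, 30.6 to 86.3%): PSMD7, PSMD8, PSMD11, PSMD12 and PSMD13. The PSMD13 window lies 430 bp from its RefSeq 5′ end. In a search at RefSeq starts, described further on, the lid had 4 of 8 and the alpha ring 5 of 8, so this order depends on the window. With peaks in at least 2 lists counted there, the lid had 7 of 8 and the alpha ring 5 of 8. The base had 3 of 8, namely the ATPases PSMC3 and PSMC4 and the ubiquitin receptor PSMD4, and the alpha ring also had 3 of 8, PSMA2, PSMA3 and PSMA5. The beta ring had 1 of 8 (12.5%, 2.24 to 47.1%), PSMB3, but 5 further beta genes had peaks in exactly 2 lists, so that 6 of 8 beta windows were covered in at least 2. The intervals of the lid and the beta ring overlap. Both interferon-inducible activator genes, PSME1 and PSME2, had a peak in all 3 lists, while the immunoproteasome catalytic genes with a window, PSMB8 and PSMB10, had a peak in none. PSME4 (an activator), PSMD10 and PSMG1 (chaperones) completed the 17.

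**Figure D1:**
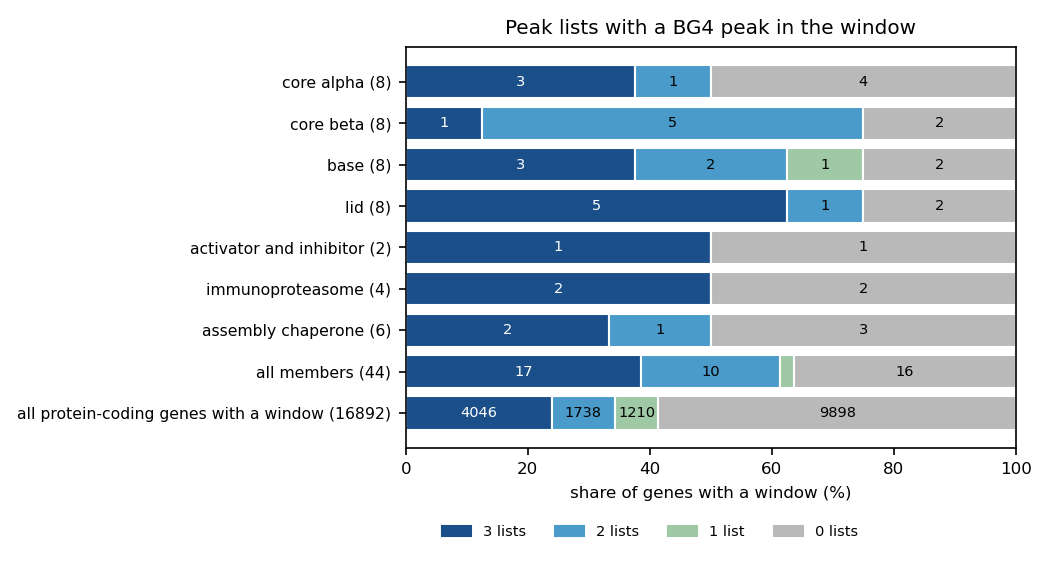
Share of genes with a window (horizontal axis, percent) by the number of peak lists with a peak in it, for each class, all members and all protein-coding genes; figures in the bars are gene counts and figures in brackets the genes with a window. The lid has the longest bar for 3 lists (5 of 8) and the beta ring the longest for 2 lists (5 of 8), and 24.0% of all protein-coding genes have a peak in all 3.

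The 16 members without a peak included genes of restricted expression. PSMA8 and PSMB11 encode subunits known from testis and from thymic epithelium, and their windows held 10.1 ± 2.27 and 12.7 ± 1.56 CPM (CPM, reads per 1e+06 reads in windows, mean ± SD over 3 biological replicates). PSMB8 and PSMB10 belong to the immunoproteasome. The others encode ubiquitous components: PSMA4, PSMA6, PSMA7, PSMB5, PSMC1, PSMD2, PSMD5, PSMD6, PSMD14, PSMF1, PSMG2 and PSMG3. For some of these the window lies away from the start that RefSeq gives, which is described further on. HEK293 expression was not measured in these libraries.

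Read density puts the members on a continuous scale. All windows have the same length, so CPM needs no scaling by length between genes. It is not scaled to an input, and copy number, mappability and base composition were not tested. The median over the members was 41.6 ± 1.63 CPM, against 23.5 ± 0.644 CPM over all protein-coding genes with a window (SD over 3 biological replicates). Of the 44 members, 33 lay above the median of all protein-coding windows, 17 above their upper quartile of 46.8 CPM and 4 above their 90th percentile: PSMD8, PSMA5, PSMD10 and PSMC4. The medians of the class members' mean CPM were 48.4 for the lid, 43.0 for the base, 42.8 for the chaperones, 42.0 for the alpha ring, 38.3 for the beta ring, 36.9 for the immunoproteasome and 24.3 for PSME4 and PSMF1. Members with a peak in all 3 lists had a median of 57.5 CPM, those with 2 lists 41.5 CPM and those with none 14.5 CPM. The peaks were called from the same libraries, so this order is no independent check of them. Single member windows received 2 to 83 reads in a library, together 0.160 to 0.190% of all reads in windows.

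**Figure D2:**
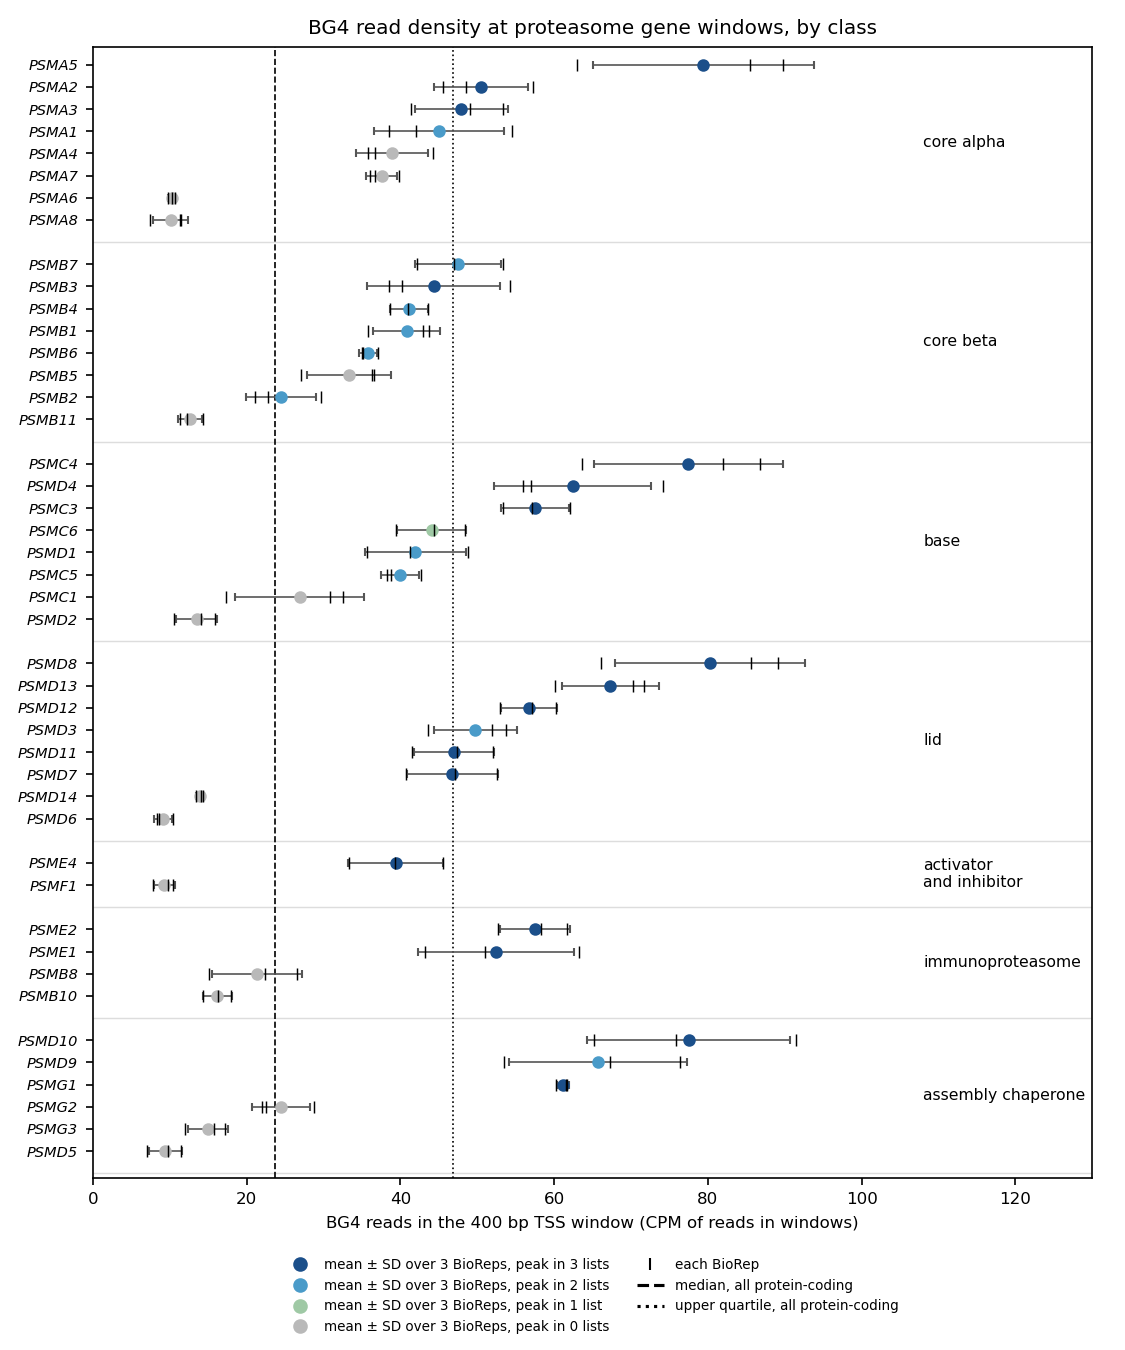
BG4 read density of the 44 members with a window (horizontal axis, CPM of reads in windows), grouped by class and ordered by level; circles and whiskers are the mean ± SD over 3 biological replicates, ticks are the single replicates and the colour gives the number of peak lists. Members with a peak in all 3 lists lie at 39.4 CPM (PSME4) or above, and windows at about 10 CPM occur in the alpha ring, the lid, the activators and the chaperones.

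In the core particle, PSMA5, an alpha-ring subunit, had the highest window (chr1:109426228-109426627, minus strand, hg38). Its libraries held 92.0, 94.8 and 82.6 CPM in BioRep3, 85.0, 89.8 and 81.5 CPM in BioRep2 and 54.8, 67.2 and 67.1 CPM in BioRep1. All BioRep1 libraries were below the other 6. PSMA8, the testis form of an alpha subunit, had the lowest alpha window, with 17.1, 10.1 and 6.74 CPM in BioRep3, 5.20, 9.45 and 7.83 CPM in BioRep2 and 9.39, 16.1 and 9.06 CPM in BioRep1. Its libraries did not overlap those of PSMA5, and 3 to 11 reads stood behind each value. Between these, the alpha windows ranged from 10.3 CPM for PSMA6 to 50.5 CPM for PSMA2.

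Among beta subunits the spread was narrower. PSMB7, which carries the trypsin-like activity, led with 46.8, 50.3 and 43.8 CPM in BioRep3, 52.0, 53.2 and 54.8 CPM in BioRep2 and 57.9, 32.3 and 36.2 CPM in BioRep1. The BioRep1 libraries spanned the values of both other replicates. PSMB3, PSMB4, PSMB1, PSMB6 and PSMB5 followed between 44.3 and 33.4 CPM, with SDs of 1.17 to 8.64 CPM. PSMB5, the target of the drug bortezomib, had 33.4 ± 5.44 CPM and no peak in any list, and PSMB6, the third constitutive catalytic subunit, had 35.8 ± 1.17 CPM with peaks in BioRep2 and BioRep3. PSMB11, the thymic beta subunit, was lowest with 10.9, 15.8 and 10.1 CPM in BioRep3, 10.4, 9.45 and 14.1 CPM in BioRep2 and 12.5, 21.5 and 9.06 CPM in BioRep1. All of these were below every PSMB7 library.

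In the base, the ATPase gene PSMC4 was highest (chr19:39970806-39971205, plus strand) with 73.2, 86.2 and 101 CPM in BioRep3, 71.1, 88.6 and 86.2 CPM in BioRep2 and 54.8, 78.0 and 58.0 CPM in BioRep1. The BioRep1 range overlapped the others through its second library. The ATPases did not share a level: PSMC3 had 57.5 ± 4.41 CPM, PSMC6 44.1 ± 4.47, PSMC5 39.9 ± 2.43 and PSMC1 26.9 ± 8.39 CPM. PSMD2, a scaffold of the base, was lowest with 17.1, 10.1 and 15.2 CPM in BioRep3, 20.8, 9.45 and 17.2 CPM in BioRep2 and 17.2, 10.8 and 3.62 CPM in BioRep1. Its window ends before the stretch where the peaks of this gene lie, as shown further on.

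In the lid, PSMD8 (chr19:38374337-38374736, plus strand) had the highest window of all members, with 82.6, 103 and 70.8 CPM in BioRep3, 101, 89.8 and 76.8 CPM in BioRep2 and 70.4, 59.1 and 68.9 CPM in BioRep1. It stood at the 94.2 percentile of all protein-coding windows. PSMD6, also a lid subunit, had the lowest window of all members with 12.5, 5.74 and 6.74 CPM in BioRep3, 8.67, 4.73 and 12.5 CPM in BioRep2 and 7.83, 16.1 and 7.25 CPM in BioRep1. The 2 lid genes did not overlap in any library. PSMD14, the deubiquitinase, had 13.9 ± 0.505 CPM, and the other lid windows lay between 46.8 CPM (PSMD7) and 67.3 CPM (PSMD13).

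Of the further activators and inhibitors, PSME4 had 39.0, 37.3 and 23.6 CPM in BioRep3, 41.6, 30.7 and 45.4 CPM in BioRep2 and 48.5, 48.4 and 39.9 CPM in BioRep1. PSMF1, which inhibits the core particle, had 15.6, 7.18 and 8.42 CPM in BioRep3, 10.4, 8.27 and 4.70 CPM in BioRep2 and 9.39, 10.8 and 9.06 CPM in BioRep1. All PSMF1 libraries were below all PSME4 libraries. Among the chaperones, PSMD10 (gankyrin, which binds a base ATPase; chrX:108091419-108091818, minus strand) was highest with 84.2, 66.0 and 77.5 CPM in BioRep3, 88.5, 98.1 and 87.7 CPM in BioRep2 and 53.2, 75.3 and 67.1 CPM in BioRep1. PSMD5, another base chaperone, was lowest with 12.5, 10.1 and 6.74 CPM in BioRep3, 13.9, 14.2 and 6.27 CPM in BioRep2 and 7.83, 8.06 and 5.44 CPM in BioRep1. The 3 base chaperones were therefore spread over most of the range of the members, with PSMD9 at 65.7 ± 11.5 CPM. The core chaperones with a window ran from 61.2 ± 0.756 CPM for PSMG1 to 15.0 ± 2.64 CPM for PSMG3.

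The immunoproteasome genes fell into a high and a low pair. PSME2 (chr14:24147371-24147770, minus strand) had 54.5, 63.2 and 67.4 CPM in BioRep3, 52.0, 49.6 and 56.4 CPM in BioRep2 and 65.7, 56.4 and 52.6 CPM in BioRep1. PSME1 (chr14:24135959-24136358, plus strand) had 65.5, 61.7 and 62.3 CPM in BioRep3, 48.6, 49.6 and 31.3 CPM in BioRep2 and 43.8, 51.1 and 58.0 CPM in BioRep1. Both activator genes thus lay in the same range, above the upper quartile of all protein-coding windows. PSMB8 (chr6:32844504-32844903, minus strand) had 23.4, 24.4 and 32.0 CPM in BioRep3, 13.9, 18.9 and 12.5 CPM in BioRep2 and 26.6, 24.2 and 16.3 CPM in BioRep1. PSMB10 (chr16:67936888-67937287, minus strand) had 10.9, 10.1 and 21.9 CPM in BioRep3, 8.67, 21.3 and 18.8 CPM in BioRep2 and 23.5, 16.1 and 14.5 CPM in BioRep1. The catalytic genes overlapped each other and both lay below the median of all protein-coding windows.

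PSMB9 had no window within 1 kb, the nearest on its strand being 10056 bp away, and its start could be read only from the peak lists. Within 200 bp of its RefSeq start all 3 lists had a peak, but no base was shared by all 3. The BioRep1 peak was 58 bp long and the BioRep2 peaks 15 and 13 bp. That start lies 488 bp from the RefSeq 5′ end of TAP1 on the other strand, the gene of a peptide transporter that carries proteasome products to class I molecules. The TAP1 window itself had 49.6 ± 0.433 CPM and a peak in all 3 lists. Peaks between the paired starts cannot be assigned to either gene. The promoters of PSMB9 and PSME2, with a peak in all 3 lists at the start, are shown beside those of PSMB8 and PSMB10, with none, in the same format and with the same capitals.
PSMB9 (chr6:32853942-32854241, plus strand): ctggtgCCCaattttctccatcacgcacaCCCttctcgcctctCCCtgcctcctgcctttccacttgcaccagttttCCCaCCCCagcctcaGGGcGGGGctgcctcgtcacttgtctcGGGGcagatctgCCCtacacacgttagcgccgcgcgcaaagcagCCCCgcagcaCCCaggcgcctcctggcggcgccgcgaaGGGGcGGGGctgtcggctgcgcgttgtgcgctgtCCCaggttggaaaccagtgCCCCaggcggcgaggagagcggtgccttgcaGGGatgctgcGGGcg
PSME2 (chr14:24146561-24146860, minus strand): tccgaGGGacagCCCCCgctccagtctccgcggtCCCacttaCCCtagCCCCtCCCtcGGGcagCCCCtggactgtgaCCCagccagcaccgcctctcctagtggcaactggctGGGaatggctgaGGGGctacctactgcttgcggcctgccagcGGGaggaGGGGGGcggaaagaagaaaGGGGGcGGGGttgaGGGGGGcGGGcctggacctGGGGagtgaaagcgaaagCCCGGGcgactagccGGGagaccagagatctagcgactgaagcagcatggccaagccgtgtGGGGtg
PSMB8 (chr6:32844630-32844929, minus strand): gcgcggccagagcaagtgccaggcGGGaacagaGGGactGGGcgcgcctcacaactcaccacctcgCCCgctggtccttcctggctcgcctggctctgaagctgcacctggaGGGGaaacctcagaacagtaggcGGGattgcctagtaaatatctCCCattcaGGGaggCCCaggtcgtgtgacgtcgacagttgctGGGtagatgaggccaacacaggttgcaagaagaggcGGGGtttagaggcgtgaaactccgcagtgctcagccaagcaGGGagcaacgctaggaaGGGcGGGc
PSMB10 (chr16:67936801-67937100, minus strand): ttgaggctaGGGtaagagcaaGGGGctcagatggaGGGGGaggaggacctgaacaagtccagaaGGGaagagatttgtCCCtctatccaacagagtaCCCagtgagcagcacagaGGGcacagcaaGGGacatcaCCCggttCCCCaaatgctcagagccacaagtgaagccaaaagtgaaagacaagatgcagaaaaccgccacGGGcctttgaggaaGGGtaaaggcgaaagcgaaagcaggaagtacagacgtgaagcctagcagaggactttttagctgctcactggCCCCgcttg
PSME2 has 14 G runs and 8 C runs at 68% GC, PSMB9 has 7 and 10 at 68.3% GC, PSMB8 has 11 and 3 at 62% GC, and PSMB10 has 8 and 5 at 54% GC. The PSME2 window lies 960 bp upstream of the start whose promoter is shown, and this promoter was itself overlapped by a peak in all 3 lists.

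Positions within the window were compared next, for the peaks that overlap it. In members with a peak in all 3 lists, the median midpoint relative to the window's TSS was -64.5 bp in BioRep3 (18 peaks, median length 239.5 bp), -31.5 bp in BioRep2 (17 peaks, 265 bp) and -26 bp in BioRep1 (18 peaks, 131.5 bp). The stretch that the peaks of all 3 lists shared, counted also where it ran beyond the window, was longest at PSMD8, where it ran mostly downstream, from -21 to 278 bp relative to the TSS. It was 277 bp long at PSMD13, 259 bp at PSME2, 230.0 bp at PSMA5 and 191 bp at PSMD10. At PSMA5 it ran mostly upstream, from -194 to 35 bp. In 3 members the agreement between lists was slight. At PSMC3 the 3 peaks shared no base, since the BioRep1 peak was 18 bp long and lay downstream of the others. At PSME4 they shared 14 bp, of which 3 bp lay in the window, and at PSMB3 9 bp. Both shared stretches were the whole length of a BioRep1 peak. With an overlap of 50 bp or more required in every list, 14 members (31.8%) kept a peak in all 3, against 21.7% of all protein-coding genes.

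**Figure D3:**
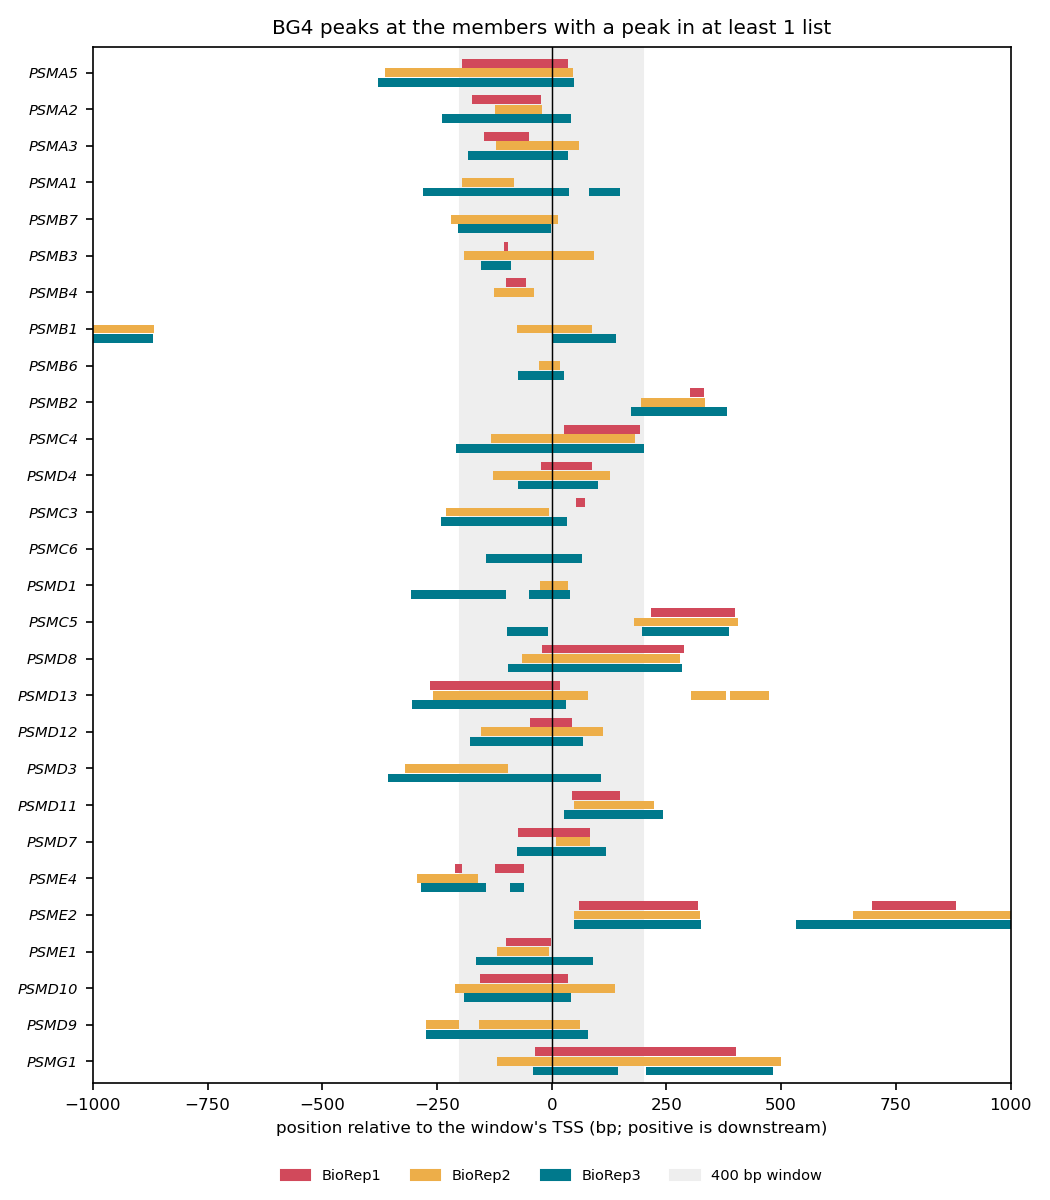
BG4 peaks of the 3 lists at the 28 members with a peak in the window of at least 1 list, drawn by position relative to the window's TSS (horizontal axis, bp, positive downstream) with the 400 bp window in grey. The peaks of PSMD8 share the stretch from -21 to 278 bp and those of PSMA5 230.0 bp, those of PSMC3 share no base, and at PSMC5 and PSMB2 a BioRep1 peak lies downstream of the window.

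Some windows do not lie at the start that RefSeq gives. For 11 of the 44 members the window's TSS was more than 200 bp from the RefSeq 5′ end, up to 973 bp for PSMG3. The same held for 3025 of all 16892 protein-coding genes with a window. The PSMA6 and PSMA1 windows lie 13684 and 123249 bp upstream of the nearest start in the promoter table. A second search was therefore made within 200 bp of any RefSeq start, a choice made after seeing the data. It found a peak in all 3 lists at 23 of the 48 members. In the promoter table, which holds 42 members, 22 of them had such a peak (52.4%), against 28.5% of 15843 protein-coding genes. Peaks in at least 2 lists covered 30 of the 42 (71.4%), against 40.1%, and 10 had none at any start (23.8%), against 52.3%. PSMA1, PSMA6, PSMB2, PSMB9, PSMC5, PSMD2 and PSMG4 had a peak in all 3 lists only in this search, of which PSMA1, PSMB2 and PSMC5 had one in 2 lists in the window. PSMD13 had it only in its window, which overlaps the window of SIRT3 on the other strand. By class, peaks in all 3 lists were then found at 5 of 8 alpha genes, 5 of 9 base genes, 4 of 8 lid genes and 2 of 8 beta genes. They were found at 3 of 5 immunoproteasome genes, 3 of 7 chaperones and 1 of 3 further activators and inhibitors. Peaks in at least 2 lists were found at 7 of 8 lid, 6 of 8 beta, 6 of 9 base and 5 of 8 alpha genes. The other classes had 3 of 5, 4 of 7 and 3 of 3 in the same order. With the 6 members outside that table, 12 had a peak in no list at any start: PSMA4, PSMA7, PSMA8, PSMB5, PSMB8, PSMB10, PSMB11, PSMC1, PSMC2, PSMD5, PSMG2 and PSMG3. Only peaks could be searched there, since reads were counted in the windows alone.

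PSMD2 shows the size of this effect. Its window (chr3:184298510-184298909, plus strand) held 13.5 ± 2.71 CPM and no peak, while its RefSeq start lies 532 bp downstream of the window's TSS. There the lists had peaks of 301 bp in BioRep3, 278 bp in BioRep2 and 261 bp in BioRep1, all outside the window. The promoter at that start has 19 G runs on the strand of the gene and 2 C runs at 74.7% GC.
PSMD2 (chr3:184298991-184299290, plus strand): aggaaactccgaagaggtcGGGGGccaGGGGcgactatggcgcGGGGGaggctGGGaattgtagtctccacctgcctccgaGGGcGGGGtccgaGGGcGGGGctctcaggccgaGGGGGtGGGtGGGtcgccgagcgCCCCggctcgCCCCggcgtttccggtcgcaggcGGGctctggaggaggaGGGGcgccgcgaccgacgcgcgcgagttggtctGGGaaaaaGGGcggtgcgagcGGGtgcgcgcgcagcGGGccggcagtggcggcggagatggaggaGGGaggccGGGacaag

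Some members share their start region with another gene, about as often as protein-coding genes in general. In 7 of the 44 (15.9%), the TSS of another window lay within 1000 bp upstream on the opposite strand. This held for 14.1% of all protein-coding genes with a window. PSMA2 paired with MRPL32 (a mitochondrial ribosomal protein gene) at 26 bp and PSMA1 with PDE3B at 88 bp. PSMA7 paired with SS18L1 at 355 bp and PSMB1 with TBP (the TATA-binding protein gene) at 961 bp. The neighbours of PSMD10, PSMD7 and PSMG1 were windows that carry only an Ensembl ID. Of these 7 members, 4 (57.1%) had a peak in all 3 lists, against 46.8% of 2378 protein-coding genes with such a neighbour. Of the other 37 members 13 had 1 (35.1%), against 20.2% of 14514 protein-coding genes without it. The 7 include PSMA1, whose window lies 123249 bp upstream of its start in the promoter table. The 37 include PSME4, PSMD13, PSMD14 and PSMG2, whose windows overlap an opposite-strand window that this upstream rule does not count. Read density showed the same split, with a median of 46.8 CPM for the 7 members against 46.0 CPM for protein-coding genes with a neighbour, and 39.9 CPM for the 37 against 19.7 CPM for those without. The windows of 10 members overlap another window and share its reads, which cannot be told apart. Such overlaps were not counted over all protein-coding genes.

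The promoter sequences of the members were set beside those of all genes, as a description with no test. Over the 42 members in the RefSeq promoter table the median GC content was 62% and the median number of G and C runs 12.5, against 62.7% and 14 over all 15843 protein-coding promoters. A G-quadruplex motif of 4 runs of GGG with 1 to 7 bases between them, on either strand, was found in 10 members (23.8%), against 30.2% of all promoters. With 1 to 12 bases between runs it was found in 16 (38.1%), against 45.2%. The 10 were PSMA4, PSMC3, PSMC4, PSMC6, PSMD2, PSMD9, PSMD11, PSME1, PSME2 and PSMG4, with none from the beta ring. Of the 9 with a window, 5 had a peak in all 3 lists there (55.6%), and 11 of 29 members without the motif did (37.9%), against 31.8% and 22.7% over all protein-coding genes. These include promoters that lie outside the window. Where the start lay within 200 bp of the window's TSS, 3 of 6 members with the motif (50%) and 9 of 19 without it (47.4%) had a peak in all 3 lists, against 36.2% and 24.3%. Among the 25 members whose RefSeq start lies within 200 bp of the window's TSS, the number of runs had a Pearson r of 0.24 and a Spearman rho of 0.26 with log2(CPM + 1), and 0.29 and 0.31 over 10669 protein-coding genes. For GC content they were 0.23 and 0.22 in the members, and 0.49 and 0.50 over all. These are descriptions across genes, whose values share the same libraries and depth.

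Matches of the narrower motif that a peak in all 3 lists overlapped by 1 bp or more are shown with GGG runs in capitals, each 5′ to 3′ on the strand that carries the G runs, from the RefSeq promoters of GRCh38.p14. The PSMA4 match, which spans the start of that gene and was overlapped in no list, is the last.
PSMD11 (chr17:32444363-32444384, strand opposite to the gene): GGGcgcGGGctgaGGGGtGGGG
PSMD2 (chr3:184299072-184299092, strand of the gene): GGGcGGGGtccgaGGGcGGGG
PSME1 (chr14:24136145-24136164, strand opposite to the gene): GGGtagtGGGGcGGGGaGGG
PSME2 (chr14:24146805-24146826, strand opposite to the gene): GGGaGGGGctaGGGtaagtGGG
PSMG4 first (chr6:3258849-3258875, strand opposite to the gene): GGGGcgatcccGGGcttGGGttGGGGG
PSMG4 second (chr6:3258877-3258903, strand opposite to the gene): GGGcGGGGGtgaGGGGcgtggtcGGGG
PSMA4 (chr15:78540396-78540417, strand opposite to the gene): GGGttGGGGcGGGGGGagcGGG
In all, 14 such matches were found in the members' promoters. Those of PSMC3, PSMC4 and PSMD9 and a second match of PSMD11 and PSME2 each were overlapped in 2 lists, that of PSMC6 in 1, and a second match of PSME1 in none. The motif's letters do not show that a structure formed, and members such as PSMD8 and PSMA5, the highest windows, hold no match in the 300 bases searched. At PSMD8 these bases end before the stretch shared by the peaks does, which runs to 278 bp downstream of the window's TSS. The rest of that stretch was not searched.

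Motifs of transcription factors were counted in the same promoters, again with no test of the shares. CGGAAG, the core bound by ETS factors, was found on either strand in 22 of 42 member promoters (52.4%), against 25.6% of all promoters, and TGANNNNGC, the antioxidant response element core, in 26 (61.9%), against 42.7%. The GC box GGGCGG was found in 28 members (66.7%), against 58.5%, and CCAAT, bound by NF-Y, in 19 (45.2%), against 36.4%. GGGCGG can overlap the GGG runs counted above. TTCNNNGAA, the interferon-γ-activated site, was found in 5 (11.9%), against 6.99%. The core of the interferon-stimulated response element, a GAAA repeat with 2 bases between, was found in 6 members (14.3%), against 3.15%: PSMA4, PSMB4, PSMB10, PSME1, PSME2 and PSMG4. In PSMB10, PSME1, PSME2 and PSMG4 it read GAAAGCGAAA, between 33 bases before and 14 after the start. Thus 3 of the 5 immunoproteasome genes held this core, with the BG4 peaks in all 3 lists at PSME1 and PSME2 and in none at PSMB10. A match is not evidence that the factor binds.

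**Figure D4:**
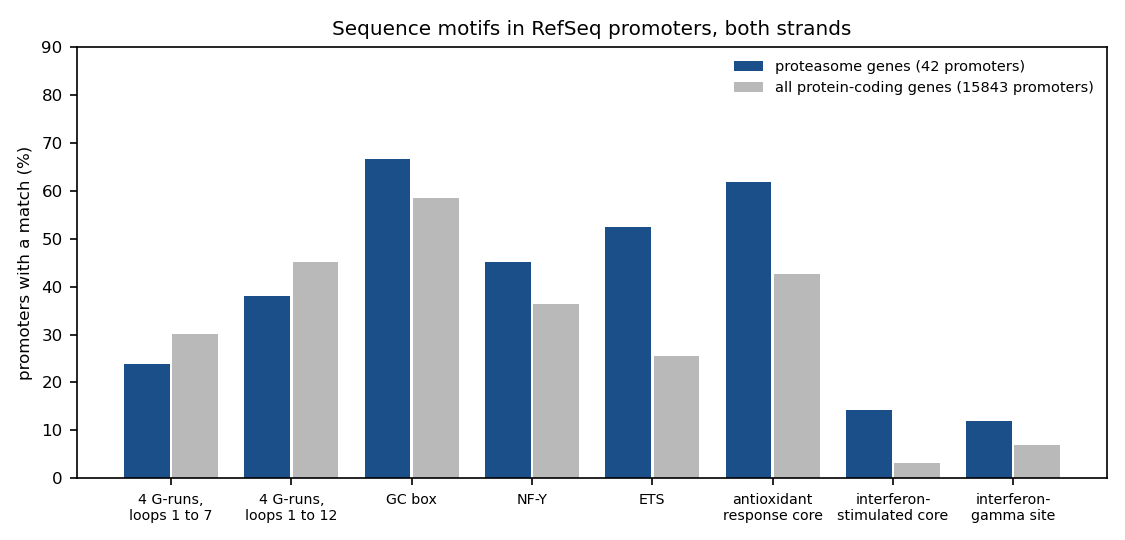
Share of RefSeq promoters (vertical axis, percent) with at least 1 match on either strand, for the 42 proteasome genes (left bars) and all 15843 protein-coding genes (right bars) in the promoter table. The bars of the narrower G-quadruplex motif stand at 23.8 and 30.2%, and those of the ETS core at 52.4 and 25.6%, with no test of either difference.

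No member passed an adjusted p of 0.05 between biological replicates. edgeR's quasi-likelihood test over the 3 biological replicates, with Benjamini-Hochberg adjustment, called 0 of 17499 windows (0.00%) and 0 of the 37 members tested, and DESeq2 called 0 of either. At an unadjusted p under 0.05 edgeR had 1379 windows (7.88%) and 8 members: PSMA5, PSMB3, PSMC1, PSMC4, PSMD4, PSMD9, PSMD10 and PSME1. PSMA6, PSMA8, PSMB11, PSMD5, PSMD6, PSMD14 and PSMF1 had too few reads to be tested. In single contrasts, 4 members had an unadjusted p under 0.05 for BioRep3 against BioRep1 (8.62% of all windows tested), 6 for BioRep3 against BioRep2 (5.59%) and 5 for BioRep2 against BioRep1 (7.59%). The p-values measure only the spread between technical libraries.

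In 7 members the libraries of 1 biological replicate did not overlap the other 6, and the 5 with the largest ratio between replicates are given here. PSMC1, a base ATPase, had 12.5, 25.8 and 13.5 CPM in BioRep3, 36.4, 33.1 and 28.2 CPM in BioRep2 and 31.3, 32.3 and 29.0 CPM in BioRep1. BioRep3 was below the others, a pattern of 1.26% of all protein-coding windows, with a log2 fold change of -0.91 ± 0.28 (SE) against BioRep2 and -0.85 ± 0.31 against BioRep1. The SEs in this paragraph were derived from the F statistic of each contrast. Like the p-values, they cover only the spread between technical libraries. The adjusted p of PSMC1 in edgeR's test over the 3 replicates was 0.446, the smallest of any member. PSME1 was higher in BioRep3 than in the others (2.17% of all protein-coding windows), by 0.50 ± 0.18 log2 units against BioRep2 and 0.27 ± 0.19 against BioRep1 (edgeR adjusted p 0.600 over the 3 replicates). PSMA5 and PSMD8 were lower in BioRep1 than in both others, as was PSMA3 (3.43% of all protein-coding windows). For PSMA5 the log2 fold changes against BioRep1 were 0.48 ± 0.16 in BioRep3 and 0.44 ± 0.16 in BioRep2 (edgeR adjusted p 0.525), and for PSMD8 0.31 ± 0.16 and 0.38 ± 0.16 (0.682). No member had BioRep1 above or BioRep2 below all other libraries, patterns of 1.76% and 1.23% of all protein-coding windows. PSMD10 was higher in BioRep2 (1.37%), like PSMD4, by 0.51 ± 0.16 log2 units over BioRep1 (edgeR adjusted p 0.498 over the 3 replicates).

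**Figure D5:**
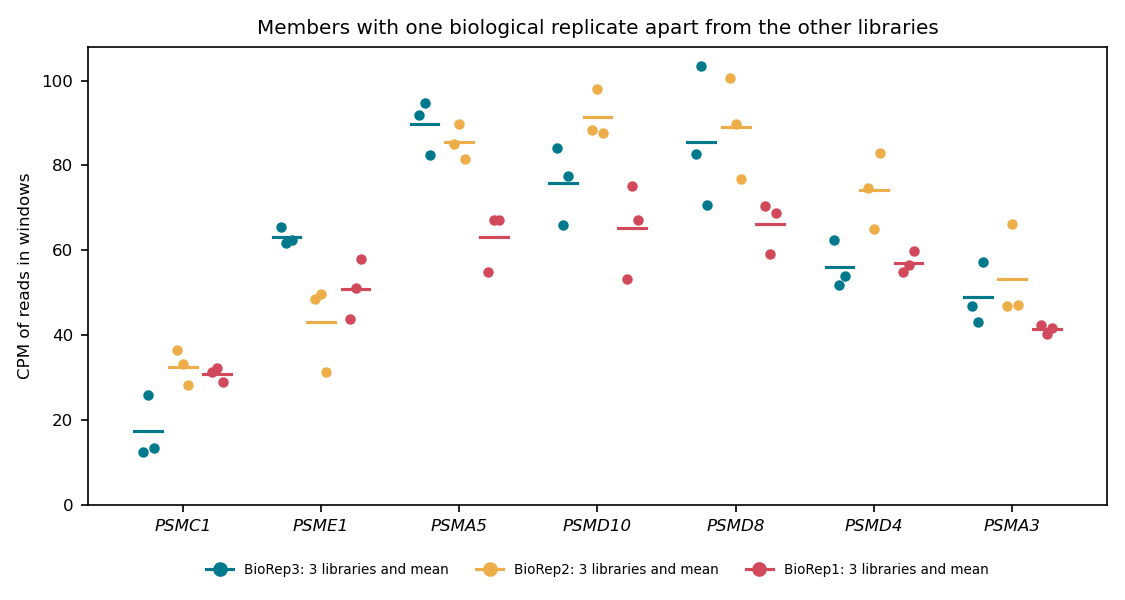
CPM of the 7 members in which all libraries of 1 biological replicate lie below or above the other 6 (vertical axis, CPM of reads in windows); dots are the 9 libraries and lines the means of 3. BioRep3 is low at PSMC1 and high at PSME1, BioRep2 is high at PSMD10 and PSMD4, and BioRep1 is low at PSMA5, PSMD8 and PSMA3; no adjusted p is under 0.05.

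The 9 members with peaks in BioRep3 and BioRep2 but not in BioRep1 were compared by level. Their median was 46.9 CPM in BioRep3, 42.1 CPM in BioRep2 and 41.2 CPM in BioRep1, against 45.6, 45.0 and 40.3 CPM over the 1548 protein-coding genes with that pattern. The peaks were called from the same libraries, so a lower BioRep1 level is no independent check of the pattern. None of these 9 members passed the test between replicates.

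Genes that work with the proteasome were read in the same way, from 45 genes in 4 lists, of which 38 had a window. Of these, 16 had a peak in all 3 lists (24.0% of all protein-coding genes did), 8 in exactly 2 (10.3%), 4 in 1 (7.16%) and 10 in none (58.6%). The median was 69.9 CPM for regulators of proteasome genes, 48.6 CPM for partners, 36.9 CPM for antigen processing and 30.5 CPM for ubiquitin precursors, against 23.7 CPM over all protein-coding genes with a window. Among partners the highest with a peak in all 3 lists were the ubiquitin ligase gene UBE3C with 96.7 ± 8.18 CPM and the ubiquitin shuttle gene RAD23B with 86.5 ± 7.98 CPM. The highest without were PAAF1, a base chaperone gene, with 55.2 ± 8.69 CPM, and the shuttle gene UBQLN4 with 53.0 ± 6.93 CPM, each with peaks in 2 lists. Among regulators of proteasome genes, NFYA had 119 ± 11.1 CPM and NFE2L1 100.5 ± 7.96 CPM, both with peaks in all 3 lists and above every proteasome gene. NRF1, a gene other than NFE2L1, with 46.3 ± 5.20 CPM, and MAFK, with 41.4 ± 0.447 CPM, had peaks in 2 lists. Whether the genes of this list act on proteasome genes in HEK293 cells was not tested. None of the ubiquitin precursor genes with a window had a peak in all 3: UBB had 45.7 ± 7.03 CPM and RPS27A 15.4 ± 2.85 CPM. In antigen processing, ERAP1, an aminopeptidase gene, had 64.8 ± 1.18 CPM and IRF1, an interferon-responsive factor gene, 54.9 ± 6.01 CPM, with peaks in all 3 lists. TAP2, with 41.5 ± 2.48 CPM, had peaks in 2 lists, and B2M, with 32.4 ± 2.46 CPM, in 1.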

How the data were processed

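HEK293 chromatin was fixed, sonicated and precipitated with BG4, then tagmented and sequenced, per the labels' protocols. The deposited values are raw read counts per 400 bp window, 200 bp to each side of a GENCODE release 28 TSS (hg38), not scaled for depth or input. Peaks were deposited as positions only, with 1 list for the technical libraries of each biological replicate. Per the submitters' processing notes, the tools included BWA, cutadapt, bedtools, Picard and MACS2. Not given in the sources used here are peak thresholds, the rule that joined libraries, and whether marked duplicates were counted. Dense windows would be capped by duplicate removal, and short or split peaks affect overlap counts.

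The 12 samples were grouped by title. The 9 ChIP libraries held 372030 to 846114 reads in windows, with 5.15 to 9.97% of windows empty. The 3 inputs were not analysed here. Whether biological replicates were separate cultures is not in the titles.

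Windows carry Ensembl IDs. They were named by position from RefSeq tables of GRCh38.p14, which do not give Ensembl IDs, so a window can belong to a neighbour on the same strand. The 158 genes with a window at both ends were dropped, and 6 members took their strand from the window. A peak counted when it overlapped the window by 1 bp or more. CPM were scaled to reads in windows, averaged over technical libraries, and their SD is over 3 biological replicates. The 95% Wilson intervals of shares cover counting error only. Replicates were compared with edgeR's quasi-likelihood F test on all windows with enough reads (TMM, filterByExpr, robust fit, 2 df, Benjamini-Hochberg at 0.05). The fit was also run on simulated counts with changes set in BioRep3. Their dispersion differed from that fitted here, so that run does not show what the test could detect in these data. Alternatives were DESeq2, other size factors, a fit without filter, a block for the technical number, other peak rules, naming within 200 bp, and leaving out each library or replicate. The search at RefSeq starts, the naming from any RefSeq start, and the printing of the PSMD2, PSMB8 and PSMB9 promoters were chosen after seeing the data.

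Members, classes and lists were chosen with earlier results of these data known. Values in every library are given for the highest and lowest member of each class, the immunoproteasome genes, and the 5 members with the largest ratio among those with 1 replicate apart. From each related list the 2 highest genes with and the 2 highest without a peak in all 3 lists are named. Tools were R 4.3.3 (DESeq2 1.42.0, edgeR 4.0.16) and Python 3.11.15 (matplotlib 3.10.9, scipy 1.17.1, pandas 2.3.3, numpy 2.4.6).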

Additional observations from a re-analysis of the deposited data

How the results depend on the processing

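The count of members with a peak in all 3 lists, 17 of 44, became 27 with a peak in at least 2 lists, 28 with a peak in any list, and 7 with only peaks at least as long as the median of their list. Leaving out the list of each biological replicate gave 17 to 26, the highest without BioRep1. The count was 14 of 44 (31.8%) with a 50 bp overlap and 20 of 44 (45.5%) with peaks within 1000 bp. It was 13 of 33 (39.4%) with naming within 200 bp and 17 of 45 (37.8%) with naming from any RefSeq start. At RefSeq starts it was 23 of 48 (47.9%). The shares of all protein-coding genes were 21.7, 29.4, 25.7 and 23.7% in the same order, and 28.5% at RefSeq starts in the promoter table. The members' median density of 41.6 CPM stayed within its SD under TMM, DESeq2 size factors, removal of mitochondrial windows and other naming, and was 40.7 to 42.3 CPM without single replicates. Of the 44 member CPM values, 44 moved by less than 1 SD under TMM, 44 under DESeq2 size factors and 43 without mitochondrial windows. Leaving out 1 of 3 replicates cannot move a mean by the SD of the 3, so it gave no such check. The edgeR test called 0 of 17499 windows; without the read filter it called 25 of 56196, none a member. Leaving out single libraries gave 0 to 1 windows, with 1 without BioRep1 technical library 1 and 1 without BioRep3 technical library 2, and 0 members in each case. With the technical number as a block 0 windows and 0 members were called, with 1343 windows at an unadjusted p under 0.05. The technical numbers do not pair the libraries: correlations of same-numbered libraries' deviations lay between -0.015 and 0.026. The matching by Ensembl ID was not run, since the gene table used here holds none. Depth limits single windows, with 2 to 83 reads per member and library, so small differences between members or replicates were not detectable.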
